A study of Mus musculus with 8 samples.

Results

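The subunits of the mitochondrial respiratory chain and of ATP synthase that are encoded in the nucleus were followed in blood stem and progenitor cells that lacked Traf6. Genes were chosen by mouse symbol: those starting with Ndufa, Ndufb, Ndufc, Ndufs, Ndufv, Uqcr, Cox4 to Cox8 or Atp5, with Sdha, Sdhb, Sdhc, Sdhd, Cyc1 and Cycs. Of 96 symbols that matched, 1 that ended in -ps was dropped, which left 95 of the 24112 genes in the tables. By the known role of the protein, 36 belonged to complex I, 4 to complex II, 9 to complex III, 19 to complex IV and 17 to complex V. Cycs encodes cytochrome c, and the other 9 are assembly or regulatory factors that share the symbol prefixes. Ndufa4 and Ndufa4l2 were counted with complex IV, where the Ndufa4 protein is found. The rule used no measured value.

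The series measured poly(A) RNA from LSK cells (lineage-negative, Sca1+, Kit+ marrow cells enriched for stem and progenitor cells) in 4 knockout libraries, KO1 to KO4, and 4 wild-type libraries, WT1 to WT4. The cells were sorted from mice after transplantation: KO mice had been rebuilt with Traf6-/-;Vav-Cre+ marrow and WT mice with Vav-Cre+ marrow, on C57BL/6. Both groups therefore carried Vav-Cre, in which the Vav promoter drives Cre recombinase in blood cells, and they differed in Traf6, the gene of a ubiquitin ligase that links Toll-like and interleukin receptors to NF-κB. The labels give neither the age of the mice nor how donor cells were told apart from host cells, and nothing in them says that the libraries came from separate mice. The spread behind each p-value is the spread of these libraries and could be technical alone.

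The respiratory chain passes electrons from NADH (complex I) and succinate (complex II) through ubiquinone to complex III, then through cytochrome c to complex IV and oxygen. Complexes I, III and IV pump protons, and ATP synthase (complex V) lets them back to make ATP. Blood stem cells at rest are known to rely more on glycolysis and to turn to oxidative phosphorylation as they enter the cycle and differentiate. Complexes I, III, IV and V also hold subunits made from the mitochondrial genome, which are not analysed here.

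Values are RPKM, reads scaled to the length of the gene and the reads of the library, so levels can be set side by side between genes. Differences are KO minus WT on the log2(RPKM + 1) scale, ± SE, from a limma fit to 11276 genes. A gene entered if 4 or more libraries had 1 RPKM or more. The call threshold was a Benjamini-Hochberg adjusted p under 0.05 over all those genes. The fit held 89 of the 95 members. Traf6 had 0.613, 0.818, 0 and 0.00721 RPKM in KO1 to KO4, against 14.9, 3.52, 9.40 and 7.10 RPKM in WT1 to WT4. Every KO value lay below every WT value (log2 difference -2.75 ± 0.53, exact permutation p = 0.0286, 2-sided, the lowest possible with 70 assignments), and its limma adjusted p was 0.341. A value over the whole gene can count exons that a conditional deletion leaves.

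The libraries differed in ways that touch the members. Lane 5 held KO3 and KO4, and lane 4 the remaining 6 libraries. Estimated depth was approximate, at 22.6 to 30.7 M reads in KO and 19.2 to 24.9 M reads in WT (M, mega), and 9055 to 13689 genes were listed above 0, the fewest in KO3. The gate's own markers Kit and Ly6a were present. Kit averaged 74.8 ± 27.3 RPKM in KO and 78.4 ± 4.24 RPKM in WT. Ly6a, which encodes Sca1, averaged 8.84 ± 2.16 RPKM in KO and 10.1 ± 2.07 RPKM in WT. Cd34, which is not part of the gate, averaged 232 ± 44.4 RPKM in KO and 259 ± 26.1 RPKM in WT (SD, n = 4 each).

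Transcripts of the chain were abundant in LSK cells of both genotypes. The median tested member averaged 77.2 RPKM over the 8 libraries, against 12.5 RPKM for the median of all genes tested, and 76 of the 89 had a mean above 20 RPKM. Summed over all 95, the members took 2.63%, 2.37%, 2.49% and 2.32% of all RPKM in KO1 to KO4, against 2.33%, 2.09%, 2.30% and 2.39% in WT1 to WT4. WT2 was the lowest of the 8 and KO1 the highest, and the genotypes overlapped. Complex V took the largest share of the 5 complexes in each library, then complex I or IV, then complex III, then complex II.

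Within complexes a few genes held much of the RNA. Atp5b, the catalytic beta subunit of ATP synthase, was the most abundant member at 818 ± 124 RPKM in KO and 709 ± 67.5 RPKM in WT (SD, n = 4 each). Ndufa4 followed, at 605 ± 87.1 RPKM in KO and 623 ± 174 RPKM in WT, and then Cox6a1, an accessory subunit of complex IV, at 610.2 ± 69.7 RPKM in KO and 563 ± 73.2 RPKM in WT. These 3 levels overlapped between neighbours in the order: Cox6a1 reached 692 RPKM in KO1 and Ndufa4 824 RPKM in WT4. In complex I the most abundant was Ndufa2, in complex II Sdhb (132 ± 24.7 RPKM in KO and 133 ± 42.9 RPKM in WT), and in complex III Uqcr11 (236 ± 27.7 RPKM in KO and 204 ± 63.6 RPKM in WT), a small accessory subunit. The genes of complex II, which form 1 enzyme with 4 subunits, had mean levels of 82.3 to 132 RPKM, a narrower range than the 4.54 to 355 RPKM of complex I.

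Of the paralogues in complex IV, 1 form took nearly all RPKM, with the Cox4i pair the exception. Cox4i1 made up 87.3% to 100.0% of the Cox4i pair, lowest in KO3. Cox6a1 made up 98.1% to 100.0% of the RPKM of the Cox6a pair in every library, Cox6b1 98.5% to 100.0% of the Cox6b pair, and Cox7a2 99.0% to 100.0% of the Cox7a pair. Cox7b2, Cox8b and Cox8c were listed at 0 in all 8 libraries. The heart and skeletal muscle forms Cox6a2 and Cox7a1 were above 0 in 1 library each, at 9.49 RPKM in WT1 and 0.356 RPKM in KO1, and Ndufa4l2, which low oxygen induces in other cells, in WT4 alone, at 1.17 RPKM. These 6 genes did not pass the filter on low values, and the other 89 did. The 3 genes for the c ring of ATP synthase, which encode the same mature protein, were all in use. Atp5g2 took 47.4% ± 8.01 of their sum in KO and 50.5% ± 4.82 in WT, Atp5g3 46.2% ± 10.9 in KO and 42.6% ± 3.71 in WT, and Atp5g1 6.49% ± 3.12 in KO and 6.95% ± 1.41 in WT (SD, n = 4 each).

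Promoters of these genes are known to carry sites for NRF1, ETS factors such as GABPA, YY1 and the oestrogen-related receptors. RefSeq windows of 300 bases on GRCm38.p6, from 250 bases before to 50 bases after the start, were held for 77 of the 95 members and searched on both strands. The NRF1 letters (GCGC, AT and GCGC without a gap) were in 9.09% of the member windows (7), against 2.16% of the windows of 8979 tested genes and 0.977% of all 27025 genes with a window. The ETS letters CCGGAAG were in 23.4% of member windows (18), against 19.8% of tested genes, and the YY1 letters AAGATGGCG in 9.09% (7), against 3.60%. The receptor letters TCAAGGTCA were in 2.60% (2), against 0.267%. The NF-κB letters (GGGA, any base, then TTTCC) were in 0 of 77 windows, against 0.323% of tested genes. A match is a description of letters, and no match says only that these letters are not in the window.

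To show what such windows look like, 1 member of each complex with a match is printed, chosen after the matches were seen, and Uqcr10, whose positive difference was the largest in complex III. Matched letters are in capitals, each sequence runs 5′ to 3′ along its gene, and the files' own build was mm9, so positions hold for GRCm38.p6 alone.
Ndufb7, chr8:83566508-83566807, plus strand: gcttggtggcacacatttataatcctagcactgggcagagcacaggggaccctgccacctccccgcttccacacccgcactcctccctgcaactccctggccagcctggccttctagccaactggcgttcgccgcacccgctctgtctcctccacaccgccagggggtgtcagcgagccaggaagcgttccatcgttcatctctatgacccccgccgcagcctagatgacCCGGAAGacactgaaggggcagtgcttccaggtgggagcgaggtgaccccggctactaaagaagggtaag
Sdhd, chr9:50603800-50604099, minus strand: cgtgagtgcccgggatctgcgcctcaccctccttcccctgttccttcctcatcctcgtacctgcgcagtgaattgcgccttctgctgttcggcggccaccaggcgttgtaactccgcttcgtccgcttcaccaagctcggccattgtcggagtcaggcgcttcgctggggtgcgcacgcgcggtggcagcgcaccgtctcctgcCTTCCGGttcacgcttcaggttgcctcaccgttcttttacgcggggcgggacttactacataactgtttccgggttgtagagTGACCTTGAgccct
Uqcrc1, chr9:108936398-108936697, plus strand: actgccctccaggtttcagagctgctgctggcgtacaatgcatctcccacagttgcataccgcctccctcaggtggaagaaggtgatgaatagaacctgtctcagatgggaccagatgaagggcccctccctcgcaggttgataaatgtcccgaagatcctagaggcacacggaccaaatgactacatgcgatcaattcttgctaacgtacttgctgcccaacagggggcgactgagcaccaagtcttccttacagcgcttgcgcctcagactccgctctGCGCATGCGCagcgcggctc
Uqcr10, chr11:4704295-4704594, minus strand: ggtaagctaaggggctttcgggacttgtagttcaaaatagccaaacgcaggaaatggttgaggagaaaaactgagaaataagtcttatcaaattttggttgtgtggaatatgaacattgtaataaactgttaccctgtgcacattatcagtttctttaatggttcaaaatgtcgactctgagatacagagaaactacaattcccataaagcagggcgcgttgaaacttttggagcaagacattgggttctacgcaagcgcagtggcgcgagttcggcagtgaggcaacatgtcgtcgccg
Cox6a1, chr5:115348909-115349208, minus strand: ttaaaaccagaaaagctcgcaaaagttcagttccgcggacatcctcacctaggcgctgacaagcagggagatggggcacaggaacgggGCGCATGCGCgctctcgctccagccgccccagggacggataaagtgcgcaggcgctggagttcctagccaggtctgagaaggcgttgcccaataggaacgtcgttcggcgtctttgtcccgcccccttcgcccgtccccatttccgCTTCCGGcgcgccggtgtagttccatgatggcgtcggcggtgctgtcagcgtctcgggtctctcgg
Atp5k, chr5:108434350-108434649, minus strand: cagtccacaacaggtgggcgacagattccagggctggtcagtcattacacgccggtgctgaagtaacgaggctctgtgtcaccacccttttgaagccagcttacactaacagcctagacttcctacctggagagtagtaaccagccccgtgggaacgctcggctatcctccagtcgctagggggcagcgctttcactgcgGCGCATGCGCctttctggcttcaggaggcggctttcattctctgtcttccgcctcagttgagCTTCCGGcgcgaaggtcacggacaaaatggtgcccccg

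In Cox6a1 and Atp5k the capitals mark an NRF1 match followed by an ETS match on the reverse strand. Ndufb7 holds the ETS letters on the forward strand, 20 bases before its start. Sdhd holds ETS and receptor matches on the reverse strand, and Uqcrc1 an NRF1 match after its start. Uqcr10 holds no match to the 5 motifs. Whether a match goes with the difference between KO and WT was not tested.

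No respiratory chain gene passed the threshold between KO and WT: 0 of 89 members had a limma adjusted p under 0.05, as did 0.0% of all genes tested, and the smallest adjusted p of a member was 0.585. At an unadjusted p under 0.05 there were 7 members (7.87%), against 7.51% of all genes tested, so the count in either direction lay near the background. All 7 were higher in KO (7.87%, against 2.77% of all genes) and 0 were lower (against 4.74%). Among genes with a mean above 20 RPKM, as 76 of the 89 members are, 5.08% were higher and 4.14% lower. Without KO1 the 7 became 3, with 816 of all genes. With library weights there were 11 higher and 4 lower, with 1994 of all genes, against 847 in the reported fit. The 7 were Ndufa2, Ndufa12, Ndufa8 and Ndufb7 of complex I and Cyc1, Uqcr10 and Uqcrq of complex III. Differences were positive for 51 of 89 members (57.3%), against 39.0% of all genes and 48.7% of the 3934 genes with a mean above 20 RPKM.

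The gap between the members and other genes varied with the base and the normalization. The median member differed by 0.04 and the median of all genes tested by -0.14, a gap of 0.18. Among genes with a mean above 20 RPKM the medians were 0.07 for 76 members and -0.01 for all 3934, a gap of 0.08. After quantile normalization the median member differed by -0.01, with a gap of -0.01. Without WT2 the median member differed by -0.04, with a gap of 0.14.

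By complex, median log2 differences were 0.15 for complex I (22 of 36 positive), -0.09 for complex II (2 of 4), 0.36 for complex III (7 of 9), 0.12 for complex IV (8 of 13 tested) and 0.04 for complex V (9 of 17). Without WT2 they were -0.02 for I, -0.21 for II, 0.27 for III, -0.05 for IV and -0.03 for V, so that complex III alone was positive. The 9 assembly and regulatory factors had a median of -0.25, with 3 positive.

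**Figure D1:**
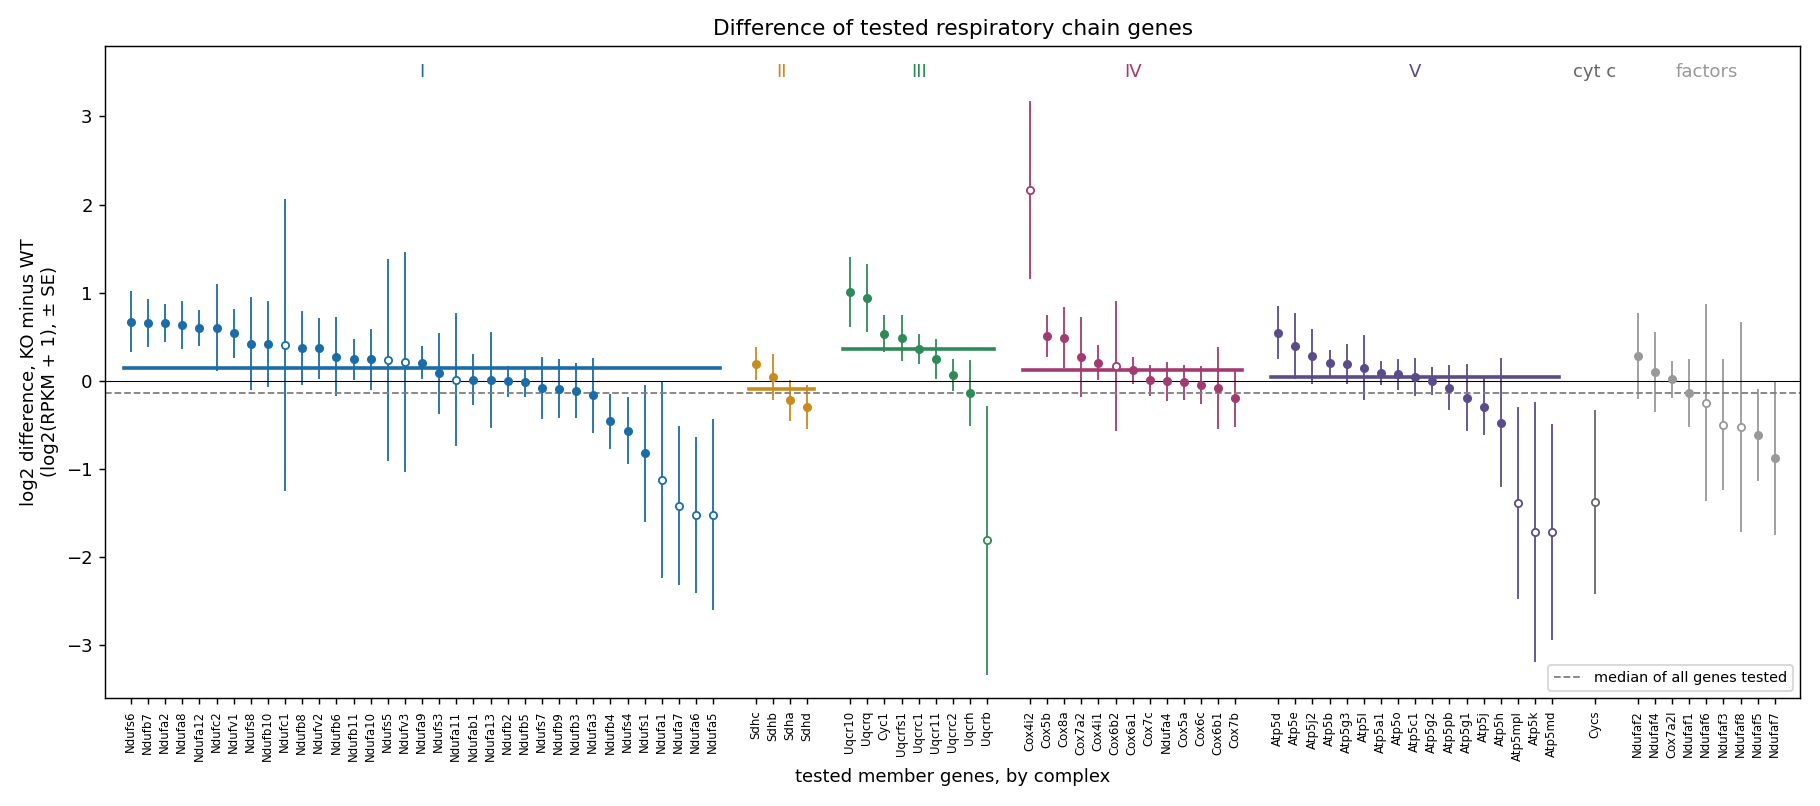
Log2 difference (KO minus WT, ± SE) of 88 of the 89 tested members, grouped by complex, with the median of each of complexes I to V as a bar, the median of all genes tested (-0.14) as a dashed line, and open points for genes listed at 0 in at least 1 library. Most filled points lie within 1 unit of 0, and the lowest differences belong to open points such as Uqcrb and Atp5md.

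Complex I, the NADH dehydrogenase, was the complex whose summed level did not overlap between genotypes. Its 36 genes took 0.727%, 0.609%, 0.652% and 0.619% of all RPKM in KO1 to KO4, against 0.541%, 0.522%, 0.545% and 0.581% in WT1 to WT4. Every KO library was above every WT library, with means of 0.652% ± 0.0533 in KO and 0.547% ± 0.0249 in WT (SD, n = 4 each). The share held by all 3934 genes with a mean above 20 RPKM was also without overlap. It was 86.9% to 88.2% in KO and 85.8% to 86.8% in WT. The complex I sum leaves out Ndufa4, which had 525 to 682 RPKM in KO and 408 to 824 RPKM in WT. The separation was not tested with Ndufa4 included. Of the 587 RPKM by which the mean sums differed, 410.1 RPKM came from 4 genes, Ndufa2, Ndufa12, Ndufb8 and Ndufb7, picked here for their size. The other 32 genes took 0.452%, 0.410%, 0.406% and 0.418% in KO1 to KO4, against 0.400%, 0.370%, 0.386% and 0.430% in WT1 to WT4, and there the genotypes overlapped. Shares of complexes II, III, IV and V overlapped as well.

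**Figure D2:**
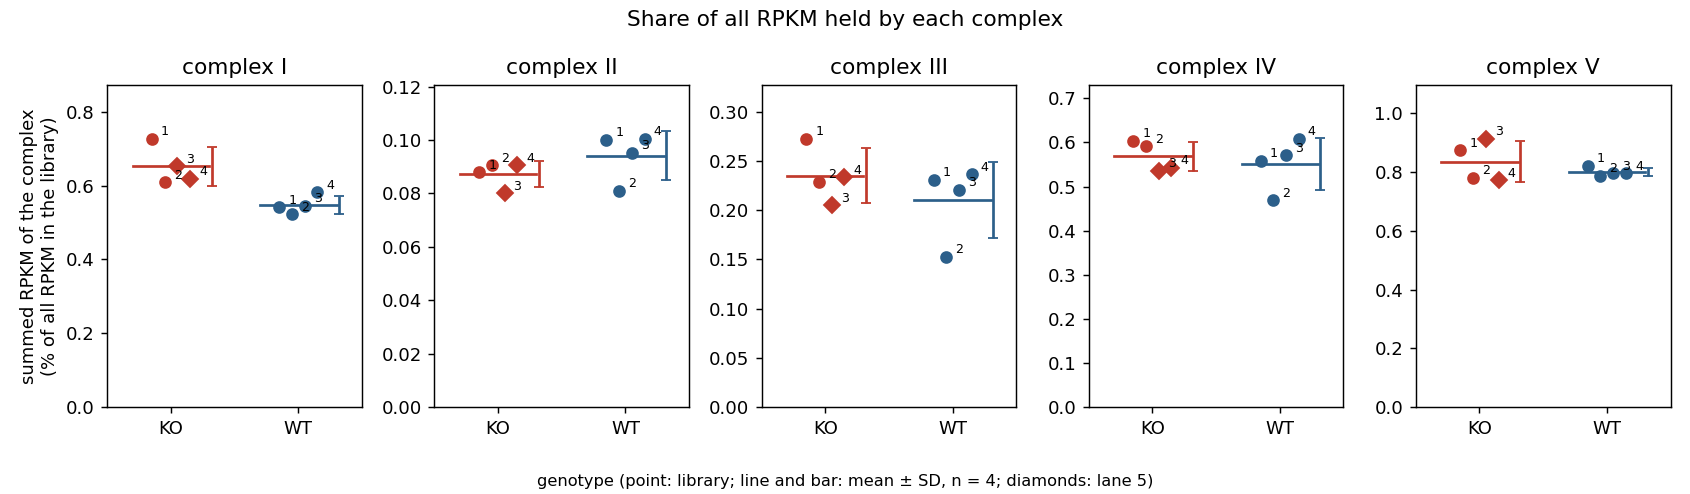
Summed RPKM of each complex as a percentage of all RPKM in the library, with KO left of WT, points numbered by library, diamonds for lane 5 and mean ± SD (n = 4). The 4 KO libraries sit between 0.609% and 0.727% for complex I, above the 4 WT libraries at 0.522% to 0.581%, and the other 4 panels overlap.

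Ndufa2, an accessory subunit of the matrix arm of complex I with a thioredoxin-like fold, was the 1 member whose groups did not overlap (1 of 89). Of all genes tested, 5.92% did not overlap, 2.05% with KO above WT and 3.88% with KO below. It had 410.2, 296, 635 and 423 RPKM in KO1 to KO4, against 268, 273, 280.4 and 256 RPKM in WT1 to WT4. The WT values were tight and KO3 was the highest, and the log2 difference of 0.66 ± 0.21 (limma adjusted p = 0.585) became 0.46 without KO3 and 0.26 with library weights. When each library was scaled to a fixed sum, 0 members were without overlap.

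Ndufa12, which sits in the matrix arm, had 275, 225, 298 and 288 RPKM in KO1 to KO4, against 178, 126, 186 and 236 RPKM in WT1 to WT4. The KO libraries were high except KO2, which lay below WT4 (log2 difference 0.60 ± 0.20, limma adjusted p = 0.606). Ndufb7, an accessory subunit of the membrane arm on the intermembrane side, had 234, 128, 153 and 111 RPKM in KO1 to KO4, against 67.9, 134, 94.2 and 93.9 RPKM in WT1 to WT4. KO1 was far the highest and WT2 lay among the KO values (0.66 ± 0.27, limma adjusted p = 0.637).

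Ndufa8, on the intermembrane side too, had 59.3, 51.4, 105 and 73.7 RPKM in KO1 to KO4, against 53.0, 58.0, 32.9 and 38.7 RPKM in WT1 to WT4. It was named after its values were seen, and the groups overlapped at KO2, WT1 and WT2 (0.64 ± 0.27, limma adjusted p = 0.645). Ndufb8, in the membrane arm, was split inside the KO group. It had 451, 329.9, 98.8 and 145 RPKM in KO1 to KO4, against 147, 158, 193 and 169 RPKM in WT1 to WT4. KO1 and KO2, of lane 4, lay above all WT libraries, while KO3 and KO4, of lane 5, lay below all of them (0.37 ± 0.42, limma adjusted p = 0.813).

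The 7 core subunits tested, which carry the flavin, the iron-sulphur clusters and the quinone site, had a median difference of 0.09, and 4 were positive. The 29 accessory subunits had a median of 0.21, with 18 positive and all 4 of the complex I genes at an unadjusted p under 0.05. Ndufs1, a core subunit that carries clusters of the matrix arm, was listed at 1.62 RPKM in KO3 and lay between 26.7 and 38.2 RPKM in the 7 other libraries.

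Complex II, succinate dehydrogenase, which also serves the citric acid cycle, had 0 genes at an unadjusted p under 0.05 in limma. Sdha, the flavoprotein, had 128, 129, 66.8 and 129.96 RPKM in KO1 to KO4, against 136, 129.5, 134 and 113 RPKM in WT1 to WT4. KO3 was low and the 7 other libraries lay close together (-0.22 ± 0.23, limma adjusted p = 0.800). Sdhb, the iron-sulphur subunit, differed by 0.04 ± 0.26, and the membrane anchors Sdhc by 0.19 ± 0.19 and Sdhd by -0.30 ± 0.25; limma adjusted p-values of the 4 genes were at least 0.757. Sdhd was lowest in KO3, at 55.1 RPKM, against 99.8 to 127 RPKM in WT.

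Complex III, the cytochrome bc1 complex, held 3 of the 7 genes. Its median difference was the highest of the 5 complexes over 8 libraries, at 0.36, but not with library weights (0.095, against 0.23 for complex I), in lane 4 (0.29, against 0.31) or without WT2, KO3 and KO4 (0.20, against 0.26). Cyc1, its haem-bearing cytochrome c1, had 108, 77.8, 78.6 and 101 RPKM in KO1 to KO4, against 78.1, 51.7, 52.1 and 70.5 RPKM in WT1 to WT4. KO2 and KO3 lay level with WT1 and above the 3 other WT libraries (0.54 ± 0.21, limma adjusted p = 0.634). Uqcr10, a small accessory subunit, had 119, 82.8, 107 and 43.8 RPKM in KO1 to KO4, against 52.3, 20.6, 64.7 and 38.4 RPKM in WT1 to WT4. KO1 to KO3 lay above all WT libraries and KO4 among them (1.01 ± 0.40, limma adjusted p = 0.634).

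Uqcrq, the ubiquinone-binding accessory subunit, had 92.5, 56.3, 44.7 and 62.2 RPKM in KO1 to KO4, against 18.5, 22.0, 38.6 and 64.2 RPKM in WT1 to WT4. WT4 was higher than 3 of the KO libraries, so the groups overlapped (0.94 ± 0.38, limma adjusted p = 0.637). Uqcrfs1, the Rieske iron-sulphur protein, averaged 96.6 ± 22.9 RPKM in KO and 69.5 ± 18.9 RPKM in WT, and Uqcrc1, a core protein of the matrix side, 227 ± 34.5 RPKM in KO and 176 ± 21.4 RPKM in WT (SD, n = 4 each). Uqcrh, the hinge protein that helps cytochrome c1 meet cytochrome c, was low in KO3 (77.3 RPKM) and in WT2 (82.6 RPKM), while the 6 others lay between 172 and 228 RPKM. WT2 was the lowest WT library for 7 of the 9 complex III genes, and its complex III share of 0.153% was the lowest of the 8 libraries.

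**Figure D3:**
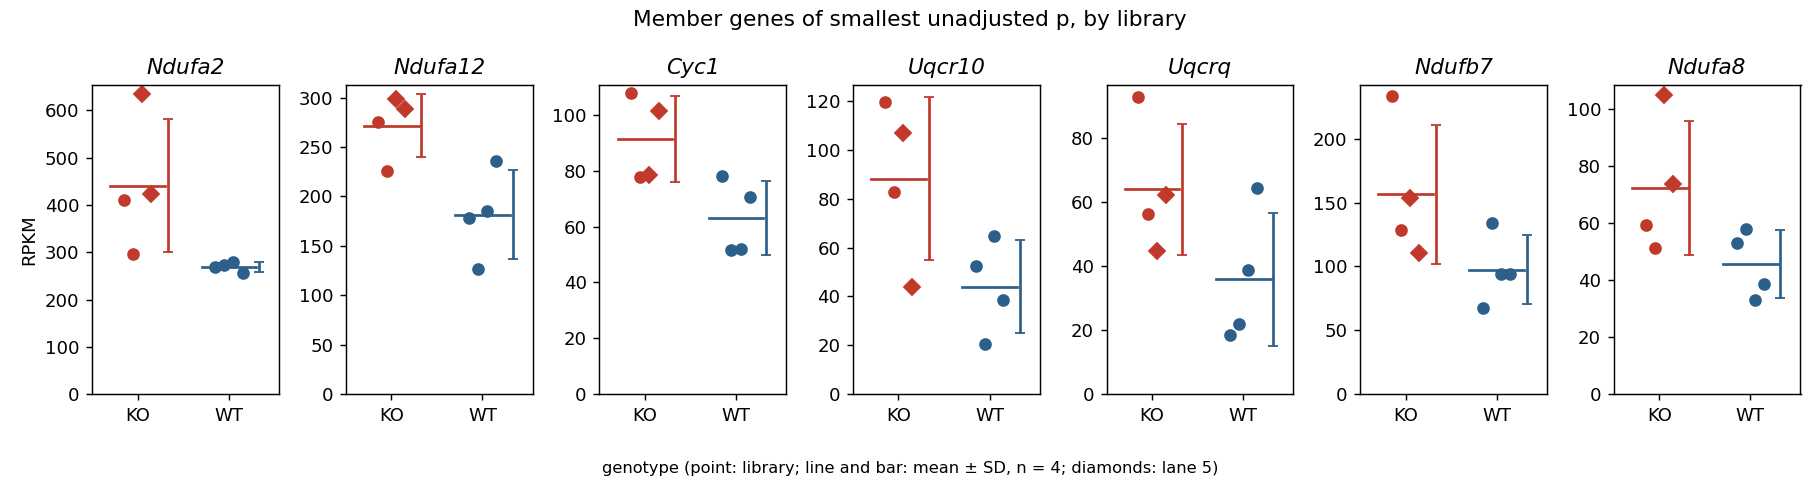
RPKM of the 7 members with an unadjusted limma p under 0.05, with KO left of WT, a point for each library, diamonds for lane 5 and mean ± SD (n = 4). The groups overlap in 6 panels, and for Ndufa2 the lowest KO library (296 RPKM) lies above the highest WT library (280.4 RPKM).

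Complex IV, cytochrome c oxidase, had 0 genes at an unadjusted limma p under 0.05. Cox5b, an accessory subunit of the matrix side, had 112, 139, 80.1 and 75.1 RPKM in KO1 to KO4, against 88.1, 66.1, 56.6 and 67.2 RPKM in WT1 to WT4. KO1 and KO2 were above all WT libraries and KO3 and KO4 among them (0.51 ± 0.24, limma adjusted p = 0.665). Library weights were lowest for KO3, at 0.137, and highest for KO2, at 6.5, the library with the most Cox5b. They made Cox5b the 1 member called (0.93, limma adjusted p = 0.0299), where 1.45% of all genes were called. Cox6b1, which joins the monomers of the dimer on the intermembrane side, had 480.4, 412, 120.0 and 134 RPKM in KO1 to KO4, against 205, 192, 346 and 290.4 RPKM in WT1 to WT4. It was high in KO1 and KO2 and lowest in KO3 and KO4. Cox4i1, the common form of the regulatory subunit that binds ATP, averaged 245 ± 33.3 RPKM in KO and 215 ± 50.2 RPKM in WT (SD, n = 4 each).

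Cox4i2, the form of that subunit known from lung and from cells in low oxygen, had the largest log2 difference of all members. Its values were 8.74, 3.19, 37.3 and 0 RPKM in KO1 to KO4, against 0, 0, 0 and 2.87 RPKM in WT1 to WT4. It was above 0 in 3 of 4 KO libraries and 1 of 4 WT libraries, so the log2 difference of 2.16 ± 1.01 (limma adjusted p = 0.665) rests on values at 0, and was 1.30 without KO3 and 3.05 without KO4. As a share of Cox4i1 plus Cox4i2 it was 3.61%, 1.11%, 12.7% and 0% in KO1 to KO4, against 0%, 0%, 0% and 1.02% in WT1 to WT4.

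Complex V, ATP synthase, had 0 genes at an unadjusted p under 0.05, and the medians of its parts had both signs. All 5 genes of the F1 head, which makes the ATP, had positive differences, with a median of 0.20. They ran between 0.04 for Atp5c1, the gamma subunit of the central shaft, and 0.55 for Atp5d, the delta subunit. Atp5d had 107, 117, 216 and 145 RPKM in KO1 to KO4, against 97.7, 57.1, 113 and 134 RPKM in WT1 to WT4. KO3 was the highest and WT2 the lowest (0.55 ± 0.30, limma adjusted p = 0.690), and without WT2, KO3 and KO4 the difference was -0.03. Atp5b differed by 0.20 ± 0.15 and Atp5a1, the alpha subunit, by 0.09 ± 0.14.

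The 3 c-ring genes had a median of -0.01, and the 9 genes of the stalks and the membrane part a median of -0.29, with 3 positive. Of those 9, Atp5k, Atp5md and Atp5mpl, small subunits of the membrane part, were listed at 0 in KO3. Atp5k had 219.7, 187, 0 and 38.2 RPKM in KO1 to KO4, against 95.7, 98.9, 136 and 141 RPKM in WT1 to WT4. KO1 and KO2 were the highest of the 8 libraries, and the log2 difference of -1.71 ± 1.48 became 0.01 without KO3. Atp5o, the subunit that joins the head to the outer stalk, averaged 477 ± 61.6 RPKM in KO and 457 ± 92.1 RPKM in WT (SD, n = 4 each; 0.07 ± 0.18).

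Values of 0 set the lowest differences. In KO3, 15 of the 89 tested members were listed at 0 (16.9%), against 24.1% of all genes tested, and 10 of the 15 were above 0 in every other library. Among genes with a mean above 20 RPKM the order was the other way: 8 of 76 members (10.5%) were at 0 in KO3, against 4.27% of all such genes. Those 8 were Uqcrb, Atp5k, Atp5md, Ndufc1, Ndufa5, Ndufa1, Atp5mpl and Cycs. By the longest GENCODE transcript of each gene, members at 0 in KO3 had a median length of 781 bases, and the other tested members 1232 bases. The length behind the deposited values is not known and can differ from it. The part that library quality or length had in the values of 0 was not tested.

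Uqcrb, which binds ubiquinone in complex III, was the most abundant of them. It had 231, 162, 0 and 112 RPKM in KO1 to KO4, against 91.1, 133, 192 and 271 RPKM in WT1 to WT4. KO1 and WT4 were the highest and the genotypes overlapped, with and without KO3 (log2 difference -1.81 ± 1.53, and 0.02 without KO3). Cycs, the carrier between complexes III and IV and a trigger of apoptosis when released, had 44.0, 32.5, 0 and 14.9 RPKM in KO1 to KO4, against 32.2, 33.9, 22.3 and 38.9 RPKM in WT1 to WT4 (-1.37 ± 1.04, limma adjusted p = 0.745). Ndufa5, in the matrix arm of complex I, had 53.5, 27.4, 0 and 22.4 RPKM in KO1 to KO4, against 48.1, 21.2, 40.5 and 53.2 RPKM in WT1 to WT4. The KO values above 0 ran within the range of the WT values except the highest, in KO1, which was level with WT4.

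**Figure D4:**
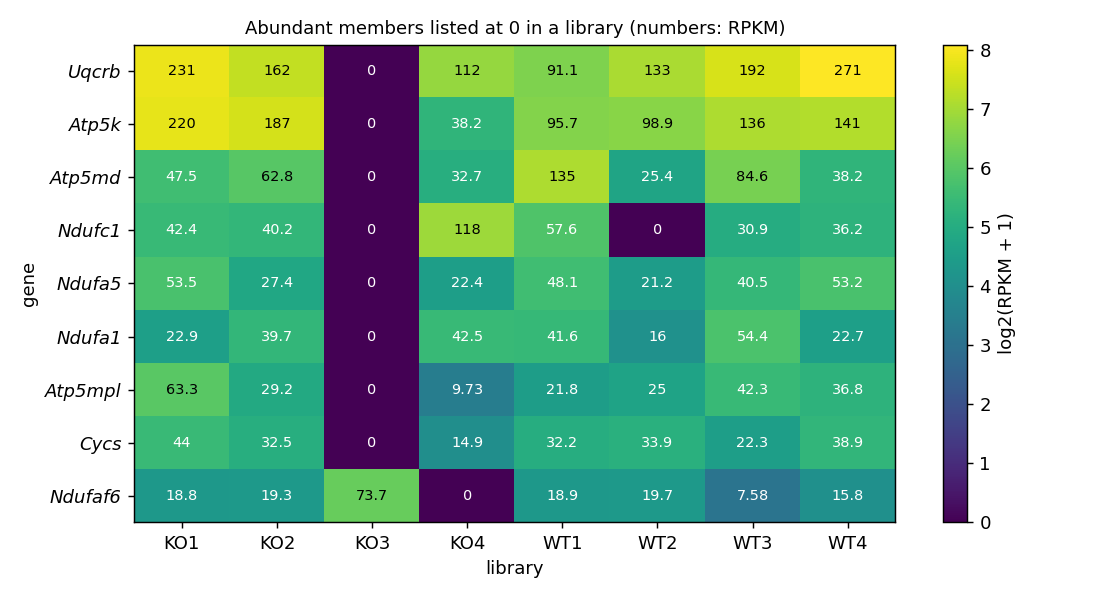
RPKM of the 9 members with a mean above 20 RPKM that were listed at 0 in at least 1 library, with the 4 KO libraries left of the 4 WT libraries and colour on the log2(RPKM + 1) scale. KO3 holds 8 of the 10 zeros, and Ndufc1 in WT2 and Ndufaf6 in KO4 are the others.

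KO3 also held many of the highest values: of the 89 tested members it was the highest library for 25 and the lowest for 27, while KO1 was the highest for 20 and WT2 the lowest for 23. The coefficient of variation of the median tested member was 36.8% in KO and 28.0% in WT. Processed pseudogenes are common for these families, and how shared reads were counted was not found in the labels or headers, so levels of the short subunits are uncertain. The share of such reads was not tested.

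Since both lane 5 libraries were KO, the comparison was repeated in lane 4, with KO1 and KO2 against the 4 WT libraries. There the median member differed by 0.23, against -0.02 for all genes tested, and 67 of 89 differences were positive. For lane 4, neither the positive share of all genes nor values for genes with a mean above 20 RPKM are given here. At an unadjusted p under 0.05, 11 members were higher in KO (background 4.95%) and 0 were lower (background 6.04%). Both KO libraries lay above all WT libraries for 15 members (background 10.7%) and below for 0 (background 13.5%). By complex the medians were 0.31 for I, 0.00 for II, 0.29 for III (9 of 9 positive), 0.29 for IV and 0.10 for V. These values share the WT libraries with the comparison of all 8 and are no second test of it.

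Single members in lane 4 still missed the threshold, which 0.0177% of all genes passed there. The smallest p was that of Ndufb8, at 1.21 ± 0.19 (limma adjusted p = 0.185), a gene that was low in lane 5. Uqcr10 differed by 1.27 ± 0.41 (0.339), Uqcrq by 1.16 ± 0.48 (0.429), Ndufb7 by 0.87 ± 0.31 (0.373) and Cyc1 by 0.55 ± 0.24 (0.454), with limma adjusted p-values in brackets. Cox5b at 0.85 ± 0.22, Cox6b1 at 0.82 ± 0.26 and Atp5k at 0.80 ± 0.22 were among those without overlap. Uqcrb (0.29), Atp5k and Cycs (0.27), all negative over 8 libraries, were positive in lane 4.

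Differences of all 11 granulocyte-monocyte progenitor markers were positive, against 39.0% of all genes. In limma 0 passed the adjusted threshold (smallest adjusted p = 0.451), and 8 had an unadjusted p under 0.05 (72.7%, against 2.77% of all genes higher in KO), while Elane, Cebpe and Fcgr3 did not. The list had summed levels of 2148 to 8076 RPKM in KO and 630 to 1874 RPKM in WT. Mpo, the myeloperoxidase of granules, averaged 2180.2 ± 1063 RPKM in KO and 757 ± 292 RPKM in WT (SD, n = 4 each). Of 8 LSK markers, 7 were lower, so that 12.5% were positive, against 39.0% of all genes. Flt3 (-0.80 ± 0.23) and Procr (-1.27 ± 0.38) were lower at an unadjusted limma p under 0.05 (25.0%, against 4.74% of all genes). The smallest limma adjusted p of the list was 0.507. Kit (-0.13 ± 0.24) and Ly6a (-0.18 ± 0.33), the 2 of the list that define the gate, did not reach the unadjusted level. The part of cell composition in the respiratory chain values was not tested, and in bulk RNA fewer cells of a type and less RNA per cell cannot be told apart.

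Among mature cell and stromal lists, Slc4a1, Cd79a, Ms4a1, Retnlg, Col1a1, Pdgfra and Lum were at 0 in all libraries. Summed levels were 128 to 233 RPKM in KO and 190.0 to 383 RPKM in WT over 11 erythroid markers, and 400 to 733 in KO and 409 to 474 in WT over 10 lymphoid markers, of which Nkg7 made up most. They were 151 to 198 RPKM in KO and 131 to 176 in WT over 9 mature myeloid markers, most of it Lyz2 (-0.04 ± 0.19), and 13.8 to 32.02 in KO and 19.2 to 33.3 in WT over 10 stromal and endothelial markers. Itgam, a mature myeloid marker, had 5.92, 6.65, 22.8 and 5.98 RPKM in KO1 to KO4, against 1.15, 2.52, 0.707 and 2.76 RPKM in WT1 to WT4, without overlap (1.87 ± 0.56, limma adjusted p = 0.515). Of 12 cell cycle markers 7 were positive (58.3%, against 39.0% of all genes), with a median difference of 0.09 and 0 at an unadjusted p under 0.05 in limma. Mki67 was at 50.8 to 76.7 RPKM in KO and 79.6 to 94.6 RPKM in WT, without overlap (-0.38 ± 0.18, limma adjusted p = 0.665). Of all genes, 3.88% did not overlap with KO below. Plk1 differed the other way, with overlap (0.60 ± 0.29, limma adjusted p = 0.665).

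Other mitochondrial genes were read from lists. Of 42 assembly factors outside the symbol rule, 17 differences were positive (40.5%, against 39.0% of all genes; median -0.25), and 3 had an unadjusted p under 0.05 (7.14%, against 7.51%), 1 of them higher in KO. Both shares lay near the background. The higher was Oxa1l (0.58 ± 0.23), which inserts proteins into the inner membrane. The lower, both listed at 0 in KO3 and KO4 and with KO2 inside the WT range, were Tmem126b (-1.71 ± 0.66), of complex I assembly, and Sdhaf4 (-2.39 ± 0.95), of complex II assembly. Of 17 citric acid cycle and pyruvate dehydrogenase genes, 8 were positive (47.1%, against 39.0% of all genes), with a median of -0.0041. In limma 0 had an unadjusted p under 0.05.

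Of 21 genes of the outer membrane, of protein import and of carriers, 6 were positive (28.6%, against 39.0% of all genes), with a median of -0.15. Tomm22 (0.59 ± 0.21), a receptor of the import pore, was the 1 gene at an unadjusted limma p under 0.05 (4.76%, against 7.51% of all genes). Of 15 regulators of mitochondrial genes, 6 were positive (40.0%, against 39.0% of all genes), with a median of -0.25. At an unadjusted limma p under 0.05 there were 3 (20.0%, against 7.51% of all genes). Myc (0.52 ± 0.22) was higher, and Nfe2l2 (-0.76 ± 0.18), of the oxidative stress response, and Yy1 (-0.47 ± 0.18) were lower, all at an unadjusted p under 0.05 and none at an adjusted one. Nrf1 (0.13 ± 0.31), Gabpa (-0.40 ± 0.29) and Tfam (0.10 ± 0.21) did not reach it, and Ppargc1a did not pass the filter on low values.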

How the data were processed

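LSK cells of 4 KO and 4 WT libraries were measured by RNA-seq of poly(A) RNA, and the labels' genotype gave the groups. The submitters' processing notes name TopHat, edgeR and mm9, and give neither versions nor roles. The sources used here do not give the counter, the annotation or any filter. The values the authors deposited are RPKM, 1 per Entrez gene and library. No header or label states this unit, which was read off the values. Of 24112 IDs, 24029 (99.7%) matched a symbol in a GRCm38 table used for names only.

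Depth was estimated from values up to 0.2 RPKM as multiples of 1 read. Only 37.0% to 57.9% came out whole within 0.03 reads, and for WT3 the doubled depth gave more whole values and the lower was taken after both were seen. The depth is approximate, no count test was run, and no counting interval is given.

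Values were fitted as log2(RPKM + 1) with limma 3.58.1 in R 4.3.3 (genotype, all 8 libraries, trend and robust variance). The fit was also run on simulated data with known changes. Those data had the same noise in all 8 libraries, so they do not show how the fit handles uneven libraries such as KO3. Genes needed at least 1 RPKM in at least 4 libraries. Only Traf6 had an exact permutation test. Groups of members are described by counts and medians, with no test of a list.

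Named members were the 3 of highest level and the 3 of smallest p in each complex, those without overlap, Sdha to Sdhd, Cyc1, Cycs, paralogue sets and those above 20 RPKM with a value of 0; from other lists, up to 3 of smallest p. Ndufa8, Ndufs1, Uqcrfs1, Atp5a1, Atp5c1 and the markers were added after their values were seen. A gene that is not reported here remained in the fits and counts. The members and lists were chosen with earlier results of these data known. Alternatives were the pseudocount, filters, lane, replicate number, normalization, library weights and left-out libraries; scaling to a fixed sum (TPM) and the limit of 20 RPKM were added after the data were seen.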

Additional observations from a re-analysis of the deposited data

Results flagged for a closer look

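In groups of 4 libraries, a library was taken to stand apart when its gap to the nearest other, over the group's range, passed Dixon's 95% critical value. The named members and the 5 complexes gave 100 groups and 7 such libraries; chance flags about 1 in 20 groups. In 3 of the 7, those of Cox4i2, Cox6a2 and Cox7a1, the other 3 libraries were at 0, where any value above 0 stands apart. Cox4i2 stood at 2.87 RPKM in WT4 while the 3 other WT libraries were at 0. Cox6a2 stood at 9.49 RPKM in WT1 and Cox7a1 at 0.356 RPKM in KO1, with the other libraries of the group at 0. Cox7b stood low in WT2, at 28.5 RPKM, against 46.4 to 48.9 RPKM in the other WT libraries. Sdha stood low in KO3, at 66.8 RPKM, against 128 to 129.96 RPKM in the other KO libraries. Uqcrh stood low in KO3, at 77.3 RPKM, against 180.4 to 188 RPKM. The median level of complex III stood low in WT2, at 5.72 on the log2(RPKM + 1) scale, against 6.31 to 6.39 in the other WT libraries.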

How the results depend on the processing

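Genes past the threshold numbered 0 in the reported fit, 1 where at least 1 RPKM in all 8 libraries was required, 2 in lane 4 alone, 164 with library weights and 3 without WT2, KO3 and KO4. Members past it numbered 1 with library weights (Cox5b) and 0 in the other settings. Members at an unadjusted limma p under 0.05 numbered 11 in lane 4, with 1239 of the 11276 genes tested. They numbered 15 with weights (11 higher and 4 lower, with 1994 of all genes). Without the 3 libraries there were 11 (10 higher and 1 lower, with 1582 of all genes). Members without overlap numbered 15 in lane 4, 21 without the 3 libraries and 0 scaled to TPM. With fewer libraries, groups are more often without overlap, and the share over all genes is not given here for left-out libraries. The median member differed by 0.23 with lane as a covariate or in lane 4. Leaving out each library gave 0 to 2 genes and 0 members past the threshold. Members at an unadjusted limma p under 0.05 then numbered 3 (without KO1, with 816 of all genes) to 8 (without WT4, with 750). Those without overlap numbered 1 to 6 (without KO2). Median differences were -0.04 to 0.14 for all members, -0.02 to 0.21 for complex I, -0.21 to -0.01 for II, 0.27 to 0.45 for III, -0.05 to 0.20 for IV and -0.03 to 0.07 for V.

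The mean level of a complex less that of all genes, KO minus WT, was 0.17 for all members, 0.20 for I, 0.13 for II, 0.39 for III, 0.47 for IV and -0.03 for V. It moved with the setting, to 0.34 for II and 0.81 for IV with a pseudocount of 0.1, -0.059 and 0.13 where at least 1 RPKM in all 8 libraries was required, -0.14 for II and -0.25 for V after quantile normalization, -0.022 for II with weights and -0.033 for II without the 3 libraries. Leaving out each library gave 0.07 to 0.23 for all members, 0.08 to 0.32 for I, 0.07 to 0.18 for II, 0.27 to 0.48 for III, 0.31 to 0.64 for IV and -0.13 to 0.09 for V. The mean difference of all genes tested was itself -0.20. Before it was taken off, means were -0.03 for all members, -0.0021 for I, -0.07 for II, 0.19 for III, 0.28 for IV and -0.23 for V. Complex IV includes Cox4i2, at 2.16, and its 11 accessory subunits had a mean of 0.11.

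Of 40 named members tested, 22 changed sign in at least 1 of 19 settings, 14 of them with a difference within its SE of 0, and none of the 22 was called. With lane as a covariate or in lane 4 alone, log2 differences were 0.23 for Atp5g1, 0.076 for Atp5g2, -0.033 for Atp5g3, 0.80 for Atp5k, 0.49 for Atp5mpl, 0.034 for Cox5a, 0.82 for Cox6b1, 0.27 for Cycs, 0.36 for Ndufaf6, 0.00942 for Sdha, -0.038 for Sdhb, -0.00553 for Sdhc, 0.054 for Sdhd, 0.29 for Uqcrb and 0.17 for Uqcrh. With library weights they were 0.068 for Atp5g1, 0.049 for Atp5g2, -0.13 for Atp5g3, 0.42 for Atp5k, 0.014 for Cox5a, 0.52 for Cox6b1, 0.058 for Cycs, 0.39 for Ndufaf6, 0.00548 for Sdha, -0.14 for Sdhb and -0.00408 for Sdhc. After quantile normalization they were -0.060 for Atp5o, 0.00956 for Ndufaf6 and -0.013 for Sdhb. Scaled to TPM, Sdhb was at -0.000909. Without WT2, KO3 and KO4 they were -0.029 for Atp5d, 0.18 for Atp5g1, 0.13 for Atp5g2, -0.035 for Atp5g3, 0.72 for Atp5k, 0.40 for Atp5mpl, 0.00232 for Cox5a, 0.70 for Cox6b1, -0.12 for Cox7a2, 0.31 for Cycs, 0.50 for Ndufaf6, 0.016 for Sdha, -0.28 for Sdhb, -0.10 for Sdhc, 0.011 for Sdhd and 0.20 for Uqcrb. Leaving out each library gave -0.41 to 0.23 for Atp5g1, -0.13 to 0.049 for Atp5g2, -0.052 to 0.33 for Atp5g3, -2.59 to 0.00722 for Atp5k, -0.027 to 0.19 for Atp5o, -0.14 to 0.14 for Cox5a, -0.42 to 0.25 for Cox6b1, -0.45 to 0.50 for Cox6b2, -0.16 to 0.59 for Cox7a2, -1.66 to 0.16 for Ndufa1, -0.20 to 0.14 for Ndufa4, -1.08 to 0.99 for Ndufaf6, -0.94 to 1.88 for Ndufc1, -0.30 to 0.014 for Sdha, -0.20 to 0.21 for Sdhb, -2.59 to 0.025 for Uqcrb and -0.46 to 0.17 for Uqcrh. The causes were not tested.

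Replicate numbers gave no sign of pairing the libraries. Deviations of same-numbered libraries correlated at -0.053, -0.080, -0.038 and -0.064, and those of differently numbered KO and WT libraries at -0.092 to 0.14. A pairing that is weak beside the spread of the libraries would look the same. With the replicate number as a block, members at an unadjusted p under 0.05 numbered 7 (6 higher and 1 lower), the median member differed by 0.04, and 0 members passed the threshold. Of the 89 tested members, 18 were at 0 in at least 1 library. KO3 listed 15 members at 0, and 9 of the 18 had a mean above 20 RPKM. The part of depth in these values of 0 was not tested.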
